A study of Mus musculus with 12 samples.

Results

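Fos, Fosb, Jun, Junb, Jund, Egr1, Atf3, Dusp1, Ier2 and Ier3 are immediate early genes, and they are also among the genes known to respond when a tissue is dissociated. They were taken by symbol from the deposited count table, where all 10 were present among 36512 genes, and all 10 passed the filter on low counts that left 21285 genes for testing. The study sorted cells by flow cytometry from the aorta and the perivascular adipose tissue around it, taken from wild-type CD-1 mouse pups that were 3 days old and of mixed sex. The labels name progenitor cells, intermediate cells, preadipocytes and smooth muscle cells, which makes 4 populations of 3 libraries each. All tissue was minced and digested with collagenase D and dispase II under warming and agitation before the sort, so every library carries this treatment and the study holds no undigested reference. The labels give neither the sorting gates nor the origin of the replicates, which may share litters or a sort. All p-values therefore rest on the spread among these libraries, and that spread may be technical.

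Immediate early genes are transcribed within minutes of a stimulus without new protein synthesis, largely through MAP kinase signalling that acts on serum response factor, its ETS partners and CREB, and their mRNAs are short-lived. Fos and Jun proteins pair to form AP-1, a transcription factor that in turn sets the expression of later genes, while other early genes encode phosphatases and decay factors that end the response. Enzymatic digestion of tissue is a known inducer of these genes, which makes them a common concern in sorted cells, and they also respond to growth factors, stretch and differentiation in vessel wall and adipose cells.

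Promoter sequence is shown here because the members moved largely together across the populations. RefSeq (GRCm38.p6) gave a promoter for 8 of the 10 genes, all but Egr1 and Ier2. The 250 bases before each start site were searched on both strands for 6 motifs. The core of the cyclic AMP response element, which CREB and ATF factors bind, was searched as TGACG, a choice made after the sequences were seen. It was found in 5 of the 8 promoters and in 17.77% of all 32851 promoters of the same length. The 200 bases before the start site of these 5 genes are given 5′ to 3′ on the strand of the gene, with each TGACG or its reverse complement CGTCA in capitals. They lie at chr12:85473690-85473889 (plus strand) for Fos, chr7:19310046-19310245 (minus strand) for Fosb, chr8:84978749-84978948 (minus strand) for Junb, chr1:191183334-191183533 (minus strand) for Atf3 and chr17:26508473-26508672 (minus strand) for Dusp1.
Fos: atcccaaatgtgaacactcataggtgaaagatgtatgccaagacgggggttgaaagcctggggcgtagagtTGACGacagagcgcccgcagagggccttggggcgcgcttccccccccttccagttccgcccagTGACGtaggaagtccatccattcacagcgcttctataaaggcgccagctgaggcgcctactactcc
Fosb: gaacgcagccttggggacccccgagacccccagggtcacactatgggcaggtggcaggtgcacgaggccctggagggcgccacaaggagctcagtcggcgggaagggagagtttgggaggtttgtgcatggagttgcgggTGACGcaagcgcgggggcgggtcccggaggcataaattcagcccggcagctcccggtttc
Junb: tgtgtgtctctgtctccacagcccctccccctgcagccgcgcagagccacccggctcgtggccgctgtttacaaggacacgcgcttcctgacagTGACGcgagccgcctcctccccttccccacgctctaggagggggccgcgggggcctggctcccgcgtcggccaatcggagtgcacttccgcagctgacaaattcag
Atf3: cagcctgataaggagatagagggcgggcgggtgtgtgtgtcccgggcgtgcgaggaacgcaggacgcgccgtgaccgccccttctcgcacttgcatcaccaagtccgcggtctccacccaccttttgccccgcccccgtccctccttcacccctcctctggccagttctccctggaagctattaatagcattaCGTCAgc
Dusp1: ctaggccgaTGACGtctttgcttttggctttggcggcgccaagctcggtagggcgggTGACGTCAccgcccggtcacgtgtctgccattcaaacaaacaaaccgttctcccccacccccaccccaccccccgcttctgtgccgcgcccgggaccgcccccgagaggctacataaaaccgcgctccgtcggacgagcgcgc
In Fos the core began 129 and 66 bases before the start site, in Fosb 60, in Junb 106 and in Atf3 7 bases before it. Dusp1 held the full palindrome TGACGTCA from 143 to 136 bases before its start site, where a core on each strand overlaps the other, and a further core that began 191 bases before it. The full palindrome was in 1.55% of all promoters. A TATA box, searched as TATAAA, began 33 bases before the start site of Fos and was in 12.37% of all promoters. The EGR motif GCGNGGGCG was found in Fosb alone among the 8, and in 4.7% of all promoters. The AP-1 motif TGANTCA and the CArG box of serum response factor were in none of the 8 windows, against 6.75% and 1.47% of all promoters. Bases further upstream and the promoters of Egr1 and Ier2 were not searched, so these genes may hold such motifs there. The start sites used for Atf3 (191183333) and Dusp1 (26508472) lie inside the gene spans given below, and the outer ends of those spans were not searched. The start site used for Jund (70697739) lies before its gene span, which begins at 70698949. The bases just before that span were therefore not searched. These are matches of letters and not measured binding.

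Levels of the members were highest in progenitor libraries for 9 genes and in intermediate libraries for Fosb, and lowest in preadipocyte libraries for 9 genes and in smooth muscle libraries for Jun. These orders are of means of CPM, counts relative to the size of the library, after TMM scaling, a scaling that evens out differences in composition between libraries. By library size alone the highest and lowest places changed for Jund, with its highest mean in smooth muscle libraries at 46.2 CPM and its lowest in intermediate libraries at 36.01 CPM. Middle places changed for Fosb, Jun and Dusp1. Fosb was then higher in smooth muscle (666 CPM) than in progenitor libraries (514 CPM). Jun was higher in preadipocyte (986 CPM) and Dusp1 in smooth muscle (1361 CPM) than in intermediate libraries (945 and 1100 CPM). A difference of the members among the 4 populations was called for 9 of 10, at a Benjamini-Hochberg adjusted p under 0.05 in edgeR's quasi-likelihood F test, and such a difference was called for 79.8% of all genes tested. Jund, the member that was not called, had an adjusted p of 0.211. In sorted bulk samples, fewer cells that express a gene and less RNA of it per cell cannot be told apart.

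The mitochondrial share of counts was 2.56% to 3.43% for preadipocytes, against 0.636% to 1.38% for the remaining populations, and their part in the results that follow was not tested. Together the 10 genes took 1.76% ± 0.0447 (SD, n = 3) of all counts in progenitor libraries, 1.38% ± 0.0394 in intermediate, 1.32% ± 0.0566 in smooth muscle and 0.927% ± 0.185 in preadipocyte libraries. The 3 progenitor libraries lay between 1.73% and 1.82%, above every other library. Intermediate libraries at 1.34% to 1.42% and smooth muscle libraries at 1.28% to 1.38% overlapped, and preadipocyte libraries at 1.02%, 1.05% and 0.714% lay below both. Per kilobase of exon, Fos was among the most abundant mRNAs of every population, at rank 6 of 21274 genes in progenitor cells, rank 11 in intermediate cells, rank 16 in preadipocytes and rank 13 in smooth muscle cells. Egr1 ranked 24, 24, 50 and 27 in the same order of populations, and Junb 25, 31, 76 and 28. At the other end, Jund ranked 1796, 1709, 2476 and 1641.

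**Figure D1:**
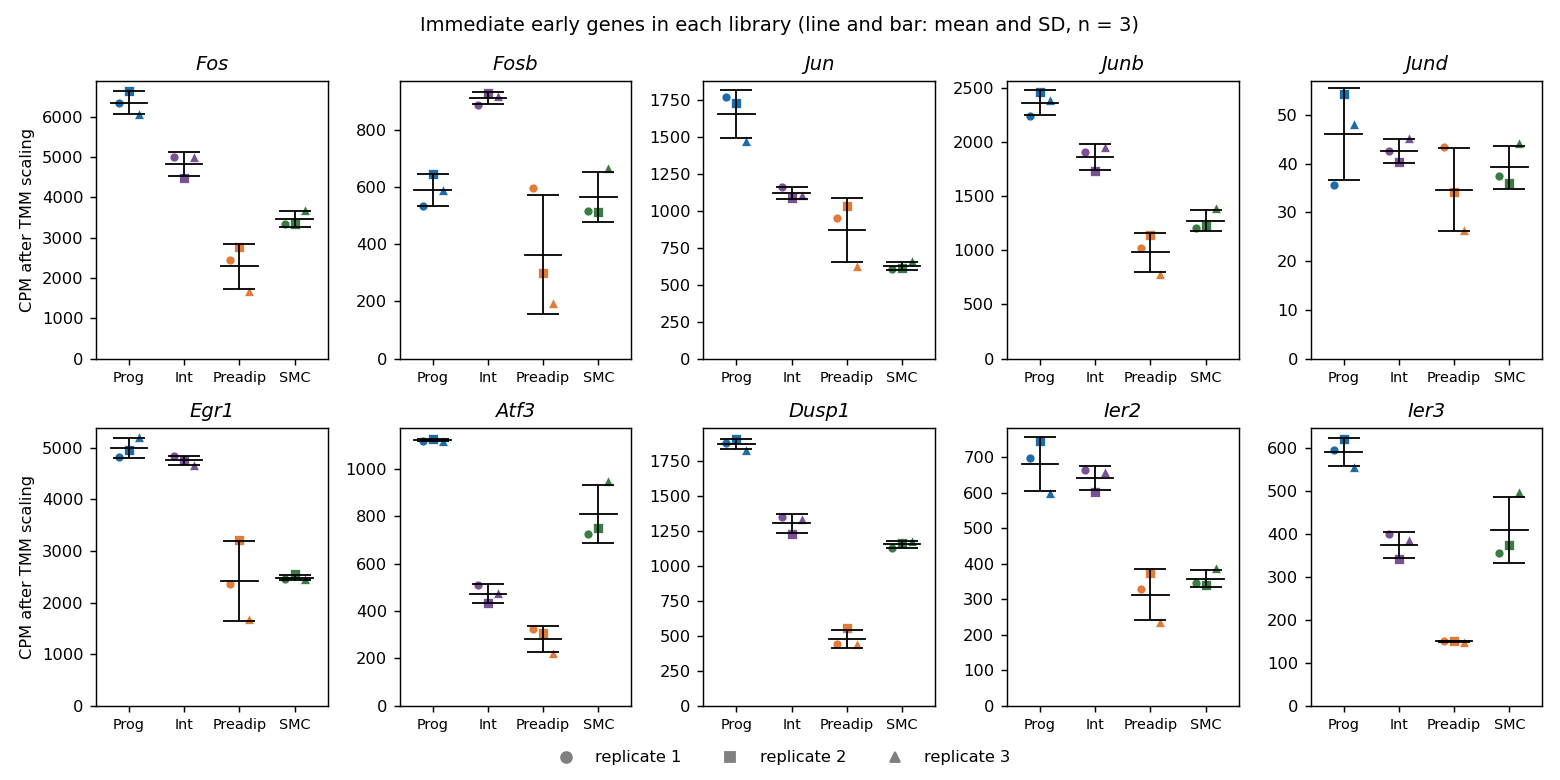
Level of each of the 10 genes in every library, in CPM after TMM scaling, with the mean (long line) and SD (bars) of the 3 libraries of each population (Prog, progenitor; Int, intermediate; Preadip, preadipocyte; SMC, smooth muscle) and a marker shape for each replicate. The progenitor mean is highest in 9 panels, and preadipocyte replicate 3 sits at the bottom of its population in 9.

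Fos encodes the founding Fos subunit of AP-1 and lies on chromosome 12 from 85473890 to 85477273 (mm10, plus strand). In the order of replicates 1, 2 and 3, used from here on, it stood at 6349.6, 6636 and 6063 CPM in progenitor, 5011, 4489.8 and 5007 in intermediate, 3347, 3326 and 3681 in smooth muscle, and 2434, 2758 and 1665 in preadipocyte libraries. The libraries of no 2 populations overlapped. Neighbours in this order differed by 0.39 ± 0.16 (log2, SE) between progenitor and intermediate, which was not called (adjusted p = 0.0795), by 0.49 ± 0.16 between intermediate and smooth muscle (adjusted p = 0.0324) and by 0.59 ± 0.16 between smooth muscle and preadipocyte libraries (adjusted p = 0.00435). The step between intermediate and smooth muscle depends on the scaling, since by library size alone Fos averaged 4081 and 4068 CPM there. From the highest to the lowest population Fos changed 2.78-fold, from 6349.5 ± 287 to 2286 ± 561 CPM (SD, n = 3).

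Fosb, a Fos family subunit with a gene on chromosome 7 from 19302696 to 19310051 (minus strand), had another order. It was at 888, 928 and 919 CPM in intermediate, 533, 645 and 592 in progenitor, 517, 514 and 666 in smooth muscle, and 596, 301 and 193 in preadipocyte libraries. Every intermediate library lay above every other library, while preadipocyte replicate 1 lay within the range of the progenitor and smooth muscle libraries. This separation depends on the scaling. By library size alone smooth muscle replicate 3, at 773 CPM, was above intermediate replicate 1, at 729.8 CPM. The difference of 0.63 (log2) between intermediate and progenitor libraries was not called (adjusted p = 0.0994, 95% interval 0.04 to 1.21 before adjustment over genes), and neither was the step of 0.06 from progenitor to smooth muscle or that of 0.64 from smooth muscle to preadipocyte libraries. Preadipocyte libraries were lower than intermediate libraries by 1.33 ± 0.28 (adjusted p = 0.000745). Fosb was the member with the widest spread between replicates, at percentile 62.4 of all genes tested by its biological coefficient of variation, against 1.45 for Dusp1. In preadipocyte replicate 1, where Fosb was highest of its population, Lars2 stood at 14218 CPM by library size and Gm23935 held 0.615% of counts, against 1719 and 2837 CPM and 0.0459% and 0.0786% in replicates 2 and 3; their part in this value was not tested.

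Jun encodes the founding Jun subunit of AP-1, from a gene without introns on chromosome 4 from 95049034 to 95052222 (minus strand). It stood at 1769.9, 1732 and 1473 CPM in progenitor, 1165, 1089 and 1105 in intermediate, 952, 1032 and 626 in preadipocyte, and 607, 615 and 659 in smooth muscle libraries. Progenitor libraries were above and smooth muscle libraries below the rest, apart from preadipocyte replicate 3, which fell among the smooth muscle libraries. Jun was thus the member lowest in smooth muscle cells, 2.64-fold below progenitor cells (1.40 ± 0.16 on the log2 scale, adjusted p = 4.11e-06) and 0.47 ± 0.16 below preadipocytes (adjusted p = 0.0167). The second call was lost without preadipocyte replicate 2 (-0.36, adjusted p = 0.0523) or smooth muscle replicate 1 (-0.45, adjusted p = 0.0504). An antisense gene, Junos, overlaps 232 bases of it and had 11 to 39 counts a library, against 8460 to 25318 counts of Jun.

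Junb encodes a Jun subunit that can oppose Jun at some targets, and lies on chromosome 8 from 84974484 to 84978718 (minus strand). It stood at 2237, 2464 and 2384 CPM in progenitor, 1905, 1729 and 1954 in intermediate, 1205, 1226 and 1387 in smooth muscle, and 1022, 1139 and 785 in preadipocyte libraries. As with Fos, the libraries of no 2 populations overlapped, and across the 12 libraries its pattern was closer to that of Fos than any other pair of members came, with a root mean square difference of 0.109 (log2, each gene centred on its own mean). The step from progenitor to intermediate was 0.34 ± 0.14 and was not called (adjusted p = 0.0817), and that from intermediate to smooth muscle was 0.55 ± 0.14 (adjusted p = 0.00765). The second step depends on the scaling. By library size alone smooth muscle minus intermediate was -0.06 and was not called (adjusted p = 0.663). The libraries of these populations then overlapped, at 1479 to 1673 CPM in intermediate and 1435 to 1610 CPM in smooth muscle libraries. The step of 0.37 ± 0.14 from smooth muscle to preadipocyte libraries was called (adjusted p = 0.0282), but it was 0.06 and was not called without progenitor replicate 2 or any 1 intermediate library. Those libraries do not enter this step, and the filter and TMM factors were computed anew in each such fit. Exons of Junb share 173 bases with Prdx2 on the other strand, which had 2312 to 20063 counts a library, and the strand of counting is not given in the sources used here.

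Jund, a Jun subunit that is usually present in resting cells and less inducible, lies on chromosome 8 from 70698949 to 70700616 (plus strand). It stood at 35.7, 54.2 and 48.2 CPM in progenitor, 42.5, 40.3 and 45.2 in intermediate, 37.5, 35.9 and 44.3 in smooth muscle, and 43.4, 34.3 and 26.4 in preadipocyte libraries. The ranges of all 4 populations overlapped, and no pair of populations passed the test with all libraries. Its largest difference, 0.41 lower in preadipocyte than in progenitor libraries, had an adjusted p of 0.0759 and a 95% interval from -0.80 to -0.02 before adjustment over genes. That difference was called without progenitor replicate 1 (-0.56, adjusted p = 0.0251) or preadipocyte replicate 1 (-0.60, adjusted p = 0.0153). Jund was also called lower in smooth muscle than in progenitor cells without any 1 intermediate library (-0.59, adjusted p = 0.0134 to 0.0140), and lower in preadipocyte than in intermediate cells without preadipocyte replicate 1 (-0.47, adjusted p = 0.0462). Intermediate libraries do not enter the first of these comparisons, and TMM factors were computed anew in each fit. Per kilobase of exon it was far below its relatives, at 27.6 ± 5.66 CPM in progenitor libraries against 1026 ± 50.1 for Junb and 519.9 ± 50.7 for Jun. An antisense gene overlaps 877 of its 1668 exon bases, and the RefSeq start site (70697739) lies before this gene span. Its level is therefore uncertain.

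Egr1, a zinc finger transcription factor induced through serum response factor, lies on chromosome 18 from 34859823 to 34864984 (plus strand). It stood at 4820.0, 4952 and 5206 CPM in progenitor, 4849, 4764 and 4665 in intermediate, 2452, 2547 and 2454 in smooth muscle, and 2352, 3217 and 1683 in preadipocyte libraries. The populations formed an upper and a lower pair. Progenitor and intermediate libraries overlapped, with intermediate minus progenitor at -0.07 (adjusted p = 0.80, 95% interval -0.44 to 0.31), and smooth muscle libraries fell inside the range of the preadipocyte libraries, with smooth muscle minus preadipocyte at 0.04 (adjusted p = 0.853, interval -0.33 to 0.41). Between the pairs, Egr1 was 1.01 ± 0.18 lower in smooth muscle and 1.05 ± 0.18 lower in preadipocyte than in progenitor libraries (adjusted p = 0.000258 and 0.00013).

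Ier2, a nuclear protein of the immediate early response, followed Egr1 closely, at a root mean square difference of 0.131 over the 12 libraries. Its gene, on chromosome 8 from 84661331 to 84662852 (minus strand), stood at 698, 745 and 598 CPM in progenitor, 664, 601 and 657 in intermediate, 347, 341 and 387 in smooth muscle, and 329, 374 and 235 in preadipocyte libraries. It showed the same upper and lower pairs as Egr1. Intermediate minus progenitor was -0.09 (adjusted p = 0.708, interval -0.42 to 0.24) and smooth muscle minus preadipocyte 0.20 (adjusted p = 0.274, interval -0.13 to 0.53), while preadipocyte libraries were 2.18-fold below progenitor libraries (adjusted p = 1.83e-05).

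Atf3, a stress-induced member of the ATF family that often represses its targets, spread furthest of the members, 3.96-fold between its highest and lowest population. The gene lies on chromosome 1 from 191170296 to 191218039 (minus strand). It stood at 1120.1, 1128 and 1119.7 CPM in progenitor, 727, 749.8 and 951 in smooth muscle, 512, 432 and 476 in intermediate, and 324, 306 and 221 in preadipocyte libraries. None of these ranges overlapped, and every step was called, with 0.47 ± 0.15 from progenitor to smooth muscle (adjusted p = 0.0161), 0.77 ± 0.15 from smooth muscle to intermediate (adjusted p = 0.00107) and 0.74 ± 0.15 from intermediate to preadipocyte libraries (adjusted p = 0.000654). Atf3 was the 1 member called higher in smooth muscle than in intermediate cells, though without intermediate replicate 2 that difference was 0.49 with an adjusted p of 0.0559. The first step was not called without smooth muscle replicate 1 (adjusted p = 0.0699) or replicate 2 (adjusted p = 0.0609), nor over genes with 5 CPM or more (-0.28, adjusted p = 0.0901). By library size alone Atf3 was 0.03 lower in smooth muscle than in progenitor libraries (adjusted p = 0.867).

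Dusp1 encodes a phosphatase that inactivates MAP kinases and so ends the signal that induced it. Its gene lies on chromosome 17 from 26505590 to 26562128 (minus strand). It stood at 1878, 1908 and 1831 CPM in progenitor, 1351, 1225 and 1335 in intermediate, 1127, 1160.3 and 1176 in smooth muscle, and 441, 552 and 444 in preadipocyte libraries. Preadipocyte libraries stood apart at the low end, 3.91-fold below progenitor (adjusted p = 4.42e-09), 2.72-fold below intermediate (adjusted p = 6.72e-08) and 2.41-fold below smooth muscle libraries (adjusted p = 2.74e-07). Ergic1 shares 11 exon bases with it on the other strand. Intermediate and smooth muscle libraries did not overlap, yet their difference of 0.18 was not called (adjusted p = 0.298), and by library size alone Dusp1 was higher in smooth muscle by 0.31 (adjusted p = 0.015).

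Ier3, an early response protein that modulates cell survival and ERK signalling, lies on the same chromosome from 35821684 to 35822923 (plus strand). It stood at 595, 620.3 and 555 CPM in progenitor, 354, 375 and 497 in smooth muscle, 399, 341 and 385 in intermediate, and 152, 151 and 149 in preadipocyte libraries. The 3 preadipocyte libraries differed by at most 1.02-fold for Ier3, although replicate 3 was the lowest of them for 9 of 10 members. Preadipocyte libraries were lower than progenitor libraries by 1.97 ± 0.14 (adjusted p = 1.29e-08), and smooth muscle and intermediate libraries overlapped (smooth muscle minus intermediate 0.12, adjusted p = 0.522, interval -0.16 to 0.41).

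Preadipocytes held less mRNA of nearly every member than progenitor cells. Of the 10 genes, 9 were lower, by 0.70 to 1.99 on the log2 scale, and none was higher, where 50.9% of all genes tested were called, 25.1% higher and 25.9% lower. The median over the 10 was -1.19, against 0.04 over all genes tested, and Atf3, Ier3 and Dusp1 showed the greatest differences. The libraries did not overlap for 8 members, all lower, where 54.8% of all genes had no overlap, 26.8% higher and 27.9% lower. Fosb, lower by 0.70 ± 0.27 (adjusted p = 0.0445), was the weakest of these calls, with overlapping libraries. Its adjusted p was above 0.05 when any 1 progenitor library, preadipocyte replicate 2 or 3, or smooth muscle replicate 1 or 2 was left out, at 0.0538 to 0.134, and the change was -0.39 without preadipocyte replicate 3 and -1.25 without preadipocyte replicate 1. It was also not called with DESeq2 (adjusted p = 0.0574), DESeq2 size factors (0.0795) or library size alone (-0.30, 0.391). The same held at 5 CPM or more (0.105) and with the compared populations alone (0.0878). The call was thus lost in 12 of 21 alternatives.

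Intermediate cells stood closer to progenitor cells. Of the 10 members, 4 were lower, where 27.6% of all genes were called, 14.1% higher and 13.4% lower. These were Atf3 (1.25 ± 0.15, adjusted p = 2.86e-05), Ier3 (0.65 ± 0.13, adjusted p = 0.00254), Jun (0.57 ± 0.16, adjusted p = 0.0166) and Dusp1 (0.52 ± 0.12, adjusted p = 0.00543). The median difference was -0.37, against 0.05 over all genes. The libraries did not overlap for 7 members, with Fosb higher and 6 lower, where 49.5% of all genes had no overlap, 24.5% higher and 24.9% lower. Without progenitor replicate 1 the adjusted p of Jun was 0.0665, and without preadipocyte replicate 3 there were 7 calls in place of 4, with Fosb higher and Fos and Junb lower among them. Fosb was also called without preadipocyte replicate 1, and Fos and Junb without intermediate replicate 1 or preadipocyte replicate 2, and Junb without intermediate replicate 3.

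Smooth muscle cells were also below progenitor cells for most members. Here 8 of 10 were lower and none higher, where 54.1% of all genes were called, 30.5% higher and 23.6% lower, and the median of the members was -0.79, against 0.09 over all genes. The same number, 8, had no overlap, all lower, where 66.4% of all genes had none, 36.7% higher and 29.7% lower. Jun differed most, followed by Egr1, Ier2 (0.93 ± 0.16 lower), Junb (0.89 ± 0.14 lower) and Fos (0.88 ± 0.16 lower). Dusp1 was 0.70 ± 0.12 and Ier3 0.53 ± 0.13 lower, Atf3 the least, and Fosb at -0.06 and Jund at -0.23 were not called. Without progenitor replicate 2 or any 1 intermediate library the differences of Atf3, Dusp1 and Ier3 were larger, reaching -0.84, -1.06 and -0.89. This shift was not particular to these genes. With 1 library left out the lowest values of the other members were also below those with all libraries. They were -1.77 for Jun, -1.37 for Egr1, -1.29 for Ier2, -1.26 for Junb, -1.25 for Fos, -0.59 for Jund and -0.42 for Fosb. The filter and TMM factors were computed anew in these fits, and their part was not tested. By library size alone 6 were called, and Atf3 and Ier3 were not.

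Between preadipocyte and intermediate cells, 8 members were lower in preadipocytes, where 57.1% of all genes were called, 26% higher and 31.1% lower. Dusp1 differed most (1.44 ± 0.12), then Fosb (1.33 ± 0.28) and Ier3 (1.32 ± 0.14), with Fos, Ier2, Egr1, Junb and Atf3 from 1.08 to 0.74. The median of the members was -1.01 and that of all genes -0.24. All members but Jund, 9 of 10, were lower with no overlap, where 60.4% of all genes had no overlap, 27.3% higher and 33.1% lower. Jun was 0.36 lower (adjusted p = 0.0623, interval -0.70 to -0.03) and Jund 0.30 lower (adjusted p = 0.178, interval -0.69 to 0.09), and neither was called. Jun was called without preadipocyte replicate 2 (-0.49, adjusted p = 0.0164).

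Smooth muscle against intermediate cells split the members. Atf3 was higher and 5 were lower, namely Egr1 (0.94 ± 0.18), Ier2 (0.84 ± 0.16), Jun (0.84 ± 0.16), Junb (0.55 ± 0.14) and Fos (0.49 ± 0.16), where 28.8% of all genes were called, 15.7% higher and 13.1% lower. Fosb at -0.69, Dusp1 at -0.18, Jund at -0.12 and Ier3 at 0.12 were not called. Fosb was called lower with DESeq2 (adjusted p = 0.0431), limma-voom (adjusted p = 0.000668), no filter (adjusted p = 0.00448) and the compared populations alone (adjusted p = 4.5e-05), and also without progenitor replicate 2, intermediate replicate 2 or 3, or preadipocyte replicate 1 or 3 (-0.91 to -0.71). Dusp1 was called lower without progenitor replicate 2 or intermediate replicate 2 (-0.44 to -0.38). The libraries did not overlap for 8 members, 1 higher and 7 lower, where 51% of all genes had no overlap, 28.8% higher and 22.1% lower. This comparison leans most on the scaling. By library size alone the median of all genes moved from 0.10 to 0.58, and 3 members were then called higher and 2 lower. The calls of Fos, Junb (-0.06, adjusted p = 0.663) and Jun (-0.35, adjusted p = 0.0511) were lost there. The call of Fos was also lost without smooth muscle replicate 1 or 2, with adjusted p-values of 0.0922 and 0.0997, and the difference was -0.76 without intermediate replicate 2.

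Smooth muscle cells against preadipocytes split them in another way. Atf3 (1.51 ± 0.15), Ier3 (1.44 ± 0.14), Dusp1 (1.27 ± 0.12), Fos and Junb were higher in smooth muscle cells and Jun was lower, where 66.6% of all genes were called, 40.7% higher and 25.9% lower. The median of the members was 0.48 and that of all genes 0.35. The 5 that were higher had no overlap, where 68.4% of all genes had none, 42.3% higher and 26.1% lower. Without progenitor replicate 2 or any 1 intermediate library the difference of Fos was 0.28 and its call was lost, and Jun reached -0.79. Neither population enters this comparison, and the filter and TMM factors were computed anew in these fits. Without progenitor replicate 2, Junb was at 0.06, Egr1 at -0.27, Ier2 at -0.12 and Jund at -0.14, each lower than with all libraries. The part of the scaling in these shifts was not tested. The call of Junb was lost when any of 10 of the 12 libraries was left out. Fosb at 0.64 (adjusted p = 0.0512, interval 0.05 to 1.22), Ier2 at 0.20, Jund at 0.18 and Egr1 at 0.04 were not called. Without preadipocyte replicate 1 Fosb was 1.15 higher in smooth muscle cells and was called (adjusted p = 7.6e-05).

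**Figure D2:**
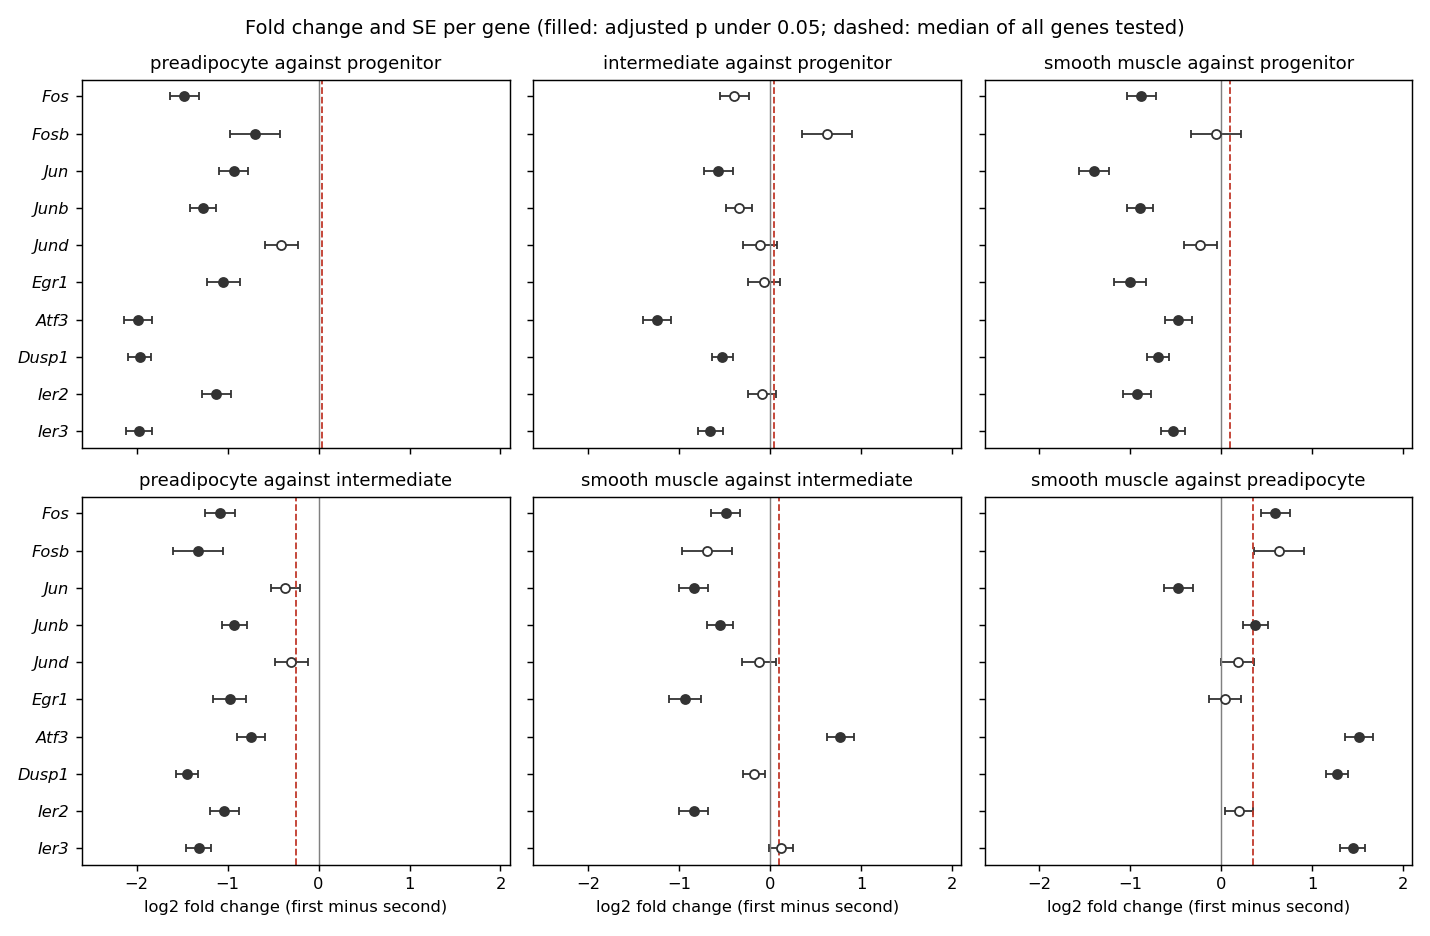
Log2 fold change of each gene in the 6 comparisons, as the first population minus the second, with its SE as bars; filled points have an adjusted p under 0.05 and the dashed red line is the median of all genes tested. All 9 filled points lie below 0 for preadipocyte against progenitor, and filled points lie on both sides of 0 in the comparisons of smooth muscle with intermediate and with preadipocyte cells.

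Ratios within a library do not depend on how libraries are scaled, so they were compared between populations as a description, with no test. Per kilobase of exon, the ratio of Fosb to Fos was 0.035 ± 0.00292 (SD, n = 3) in progenitor, 0.0713 ± 0.00586 in intermediate and 0.0615 ± 0.00574 in smooth muscle libraries. All progenitor libraries, at 0.0316 to 0.0368, were below all other libraries, and preadipocyte libraries ran from 0.0411 to 0.0923. Lars2 was also low in progenitor libraries, at 2026 to 3755 CPM by library size against 10302 to 21524 in the intermediate and smooth muscle libraries, and its part in this ratio was not tested. The ratio of Jun to Junb was 0.634 ± 0.0514 in preadipocyte, 0.508 ± 0.0626 in progenitor, 0.435 ± 0.0238 in intermediate and 0.356 ± 0.0115 in smooth muscle libraries. Preadipocyte libraries, at 0.575 to 0.672, were above and smooth muscle libraries, at 0.343 to 0.363, below all others, while progenitor and intermediate libraries overlapped.

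Relative to Fos, Atf3 and Dusp1 were highest in smooth muscle cells. The ratio of Atf3 to Fos was 0.255 ± 0.0238 in smooth muscle, 0.193 ± 0.00803 in progenitor, 0.137 ± 0.0138 in preadipocyte and 0.107 ± 0.00415 in intermediate libraries, with no overlap between populations. That of Dusp1 to Fos was 0.238 ± 0.0105, 0.21 ± 0.0052, 0.153 ± 0.032 and 0.192 ± 0.0022 in the same order, and smooth muscle libraries were again above all others. The ratio of Ier3 to Ier2 was 1.53 ± 0.181 in smooth muscle, 1.17 ± 0.0681 in progenitor, 0.787 ± 0.0222 in intermediate and 0.672 ± 0.163 in preadipocyte libraries. Smooth muscle and progenitor libraries, from 1.12 upwards, were all above the other 6, which reached 0.854. The ratio of Egr1 to Fos, at 0.379 ± 0.0265 in smooth muscle and 0.413 ± 0.0323 in progenitor libraries, was lower there than in intermediate (0.518 ± 0.035) and preadipocyte libraries (0.55 ± 0.055).

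**Figure D3:**
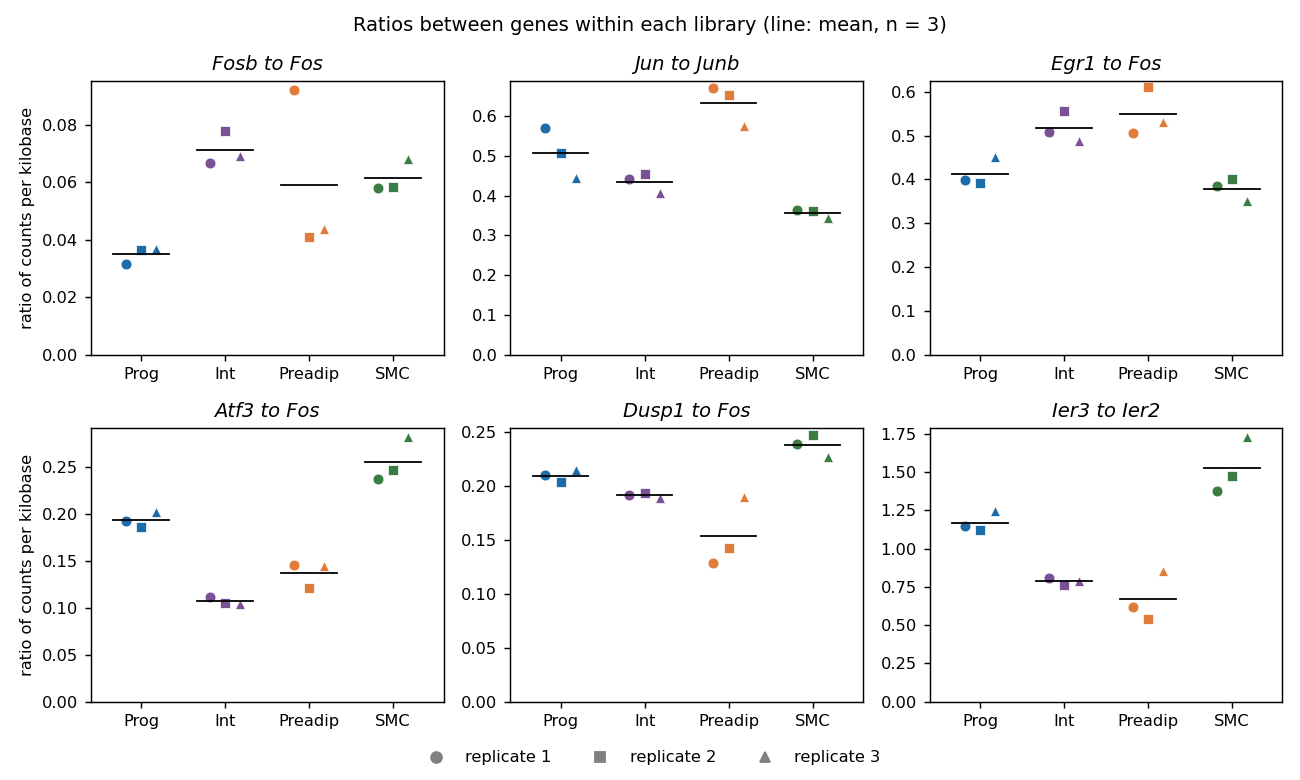
Ratios between pairs of the genes within each library, in counts per kilobase of exon, with a line at the mean of the 3 libraries of each population (Prog, progenitor; Int, intermediate; Preadip, preadipocyte; SMC, smooth muscle) and a marker shape for each replicate. The Fosb to Fos ratio is lowest in progenitor libraries, and Atf3 to Fos and Ier3 to Ier2 are highest in smooth muscle libraries.

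Among replicates the members also moved together. In preadipocyte replicate 3 all 10 genes were below the mean of their population, by a median of 0.37 and by up to 0.75 (log2, Fosb), whereas the median over all genes in that library was 0.04 below. Haemoglobin genes held 1.84% of counts in this library, against 0.114% and 0.129% in preadipocyte replicates 1 and 2; their part in the low values was not tested. Without this library, 8 members were lower in preadipocyte than in progenitor cells and Fosb was not called. Preadipocyte replicates 1 and 2 were above the mean for 9 genes each, and the greatest deviation of all was that of Fosb in replicate 1, at 0.87. In smooth muscle cells replicate 3 was the highest of the 3 libraries for 9 genes, with a median deviation of 0.12. Replicate 2 was the highest progenitor library for 8 genes and the lowest intermediate library for 8 genes. Dusp1, Ier3 and Junb varied least between replicates, at percentiles 1.45, 8.04 and 10.7 of all genes by the biological coefficient of variation.

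**Figure D4:**
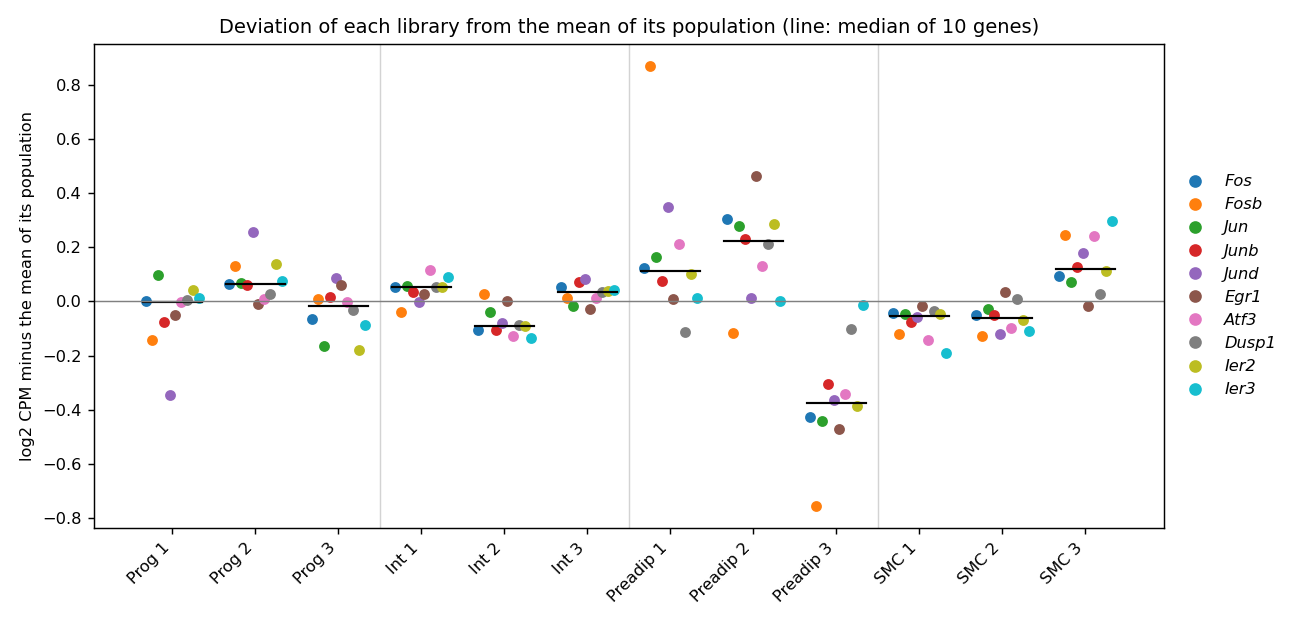
Deviation of each gene in each library from the mean of its population, in log2 CPM, with a line at the median of the 10 genes (Prog, progenitor; Int, intermediate; Preadip, preadipocyte; SMC, smooth muscle). All points of preadipocyte replicate 3 lie below 0, and Fosb in preadipocyte replicate 1 lies highest, at 0.87.

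Other genes of the same response were read from 6 lists, from which up to 3 of the most abundant tested genes are named. Of all genes tested, 25.9% were lower and 25.1% higher in preadipocyte than in progenitor cells. Against progenitor cells, 13.4% were lower and 14.1% higher in intermediate cells, and 23.6% lower and 30.5% higher in smooth muscle cells. Of 18 other immediate early transcription factors, 14 were lower and none higher in preadipocyte than in progenitor cells. In intermediate cells 6 were higher and 3 lower than in progenitor cells, and in smooth muscle cells 7 were higher and 6 lower. The orphan nuclear receptors Nr4a1 and Nr4a2 had their highest means in smooth muscle libraries, where no member had its highest after TMM scaling. Neither was called between smooth muscle and intermediate cells (0.09, adjusted p = 0.718, for Nr4a1 and 0.14, adjusted p = 0.511, for Nr4a2). Nr4a1 stood at 1223 ± 61.6 CPM in progenitor libraries, at 1654 ± 102 in intermediate ones, at 349 ± 86.7 in preadipocyte ones and at 1757 ± 134 in smooth muscle ones (SD, n = 3), the order kept below. Nr4a2 was at 205 ± 24.2, 542 ± 80.7, 39.3 ± 2.42 and 598 ± 111 CPM in that order, 1.40 ± 0.15 higher (log2, SE) in intermediate and 1.55 ± 0.15 higher in smooth muscle than in progenitor cells. Klf6, a zinc finger factor, was at 868 ± 6.82, 546 ± 18.2, 397 ± 68.2 and 440.1 ± 40.6 CPM and so lowest in preadipocyte and highest in progenitor libraries, like most members.

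Of 21 immediate early genes that encode other proteins, 16 were lower and 1 was higher in preadipocyte than in progenitor cells, and 12 were lower and 4 higher in smooth muscle cells. Ccn1, a secreted matrix protein, was at 2357 ± 168, 1706 ± 117, 601 ± 179 and 988 ± 47.3 CPM in this order of populations. The chemokine Cxcl1 had means of 2484 ± 291, 878 ± 123, 1280.4 ± 213 and 614 ± 99.1 CPM. Mcl1, a survival protein of the Bcl2 family, was at 463 ± 169, 574 ± 17.5, 320.2 ± 67.4 and 477 ± 37.6 CPM, and its difference between preadipocyte and progenitor cells was not called. Of the 15 tested among 16 further AP-1 and CREB/ATF genes, 9 were lower and 2 higher in preadipocyte than in progenitor cells, and 1 was lower and none higher in intermediate cells. Atf4 was at 486 ± 14.2, 450.3 ± 37.1, 375 ± 10.5 and 336 ± 49.3 CPM, Crem at 109 ± 17.2, 146 ± 15.1, 43.8 ± 0.855 and 127 ± 27.3, and Mafk at 108 ± 12.1, 119.9 ± 8.71, 40.1 ± 12.3 and 184 ± 2.86.

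Of 23 feedback inhibitors and mRNA decay factors, 11 were lower and 4 higher in preadipocyte than in progenitor cells, 7 lower and 6 higher in intermediate cells, and 5 lower and 9 higher in smooth muscle cells. Zfp36, which promotes the decay of mRNAs with AU-rich elements, was at 1071 ± 102, 660.2 ± 39.5, 483 ± 118 and 438 ± 46 CPM in this order. Ppp1r15a, the stress-induced partner of a phosphatase that restores translation, was at 1039 ± 29.8, 1021 ± 57.6, 385 ± 67.2 and 683 ± 33.6 CPM. Btg2, an antiproliferative factor, was at 902 ± 44.6, 749.6 ± 78.6, 432 ± 82.1 and 566 ± 62.5 CPM. Of 18 upstream kinases and serum response factor partners, 5 were lower and 2 higher in preadipocyte against progenitor cells, with a median of 0.10 over the list. Of all genes, 50.9% were called in that comparison. Map2k2, which encodes a MAP kinase kinase, was at 111 ± 2.47, 106 ± 8.23, 135 ± 5.16 and 82.3 ± 12.3 CPM, and the receptor gene Egfr at 183 ± 8.95, 240.5 ± 24.2, 66.1 ± 13.5 and 87.4 ± 3.54.

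Heat shock genes are another known response to the handling of cells. Of 17, 9 were lower and 4 higher in preadipocyte than in progenitor cells. Hspa1a (-1.70 ± 0.14, log2, SE) and Hspa1b (-1.45 ± 0.12) were among the 9 lower, and Hspd1 (2.47 ± 0.14) among the 4 higher. Against intermediate cells 5 were lower and 7 higher in preadipocytes, where the list's median was 0.10. Of all genes, 31.1% were lower and 26% higher in that comparison. The genes with levels given next are the 3 most abundant of the list. Hspa8, a cytosolic chaperone, had means of 1716 ± 29.2 CPM in progenitor cells and 1711 ± 100.01 in preadipocytes, against 1033 ± 108 in intermediate and 874 ± 136 in smooth muscle libraries. Hsp90ab1 was highest in preadipocyte libraries, at 1459 ± 137 CPM, with 1086 ± 93.9 in progenitor, 813 ± 80.7 in intermediate and 877 ± 191 in smooth muscle libraries. Hspa5, a chaperone of the endoplasmic reticulum, was at 2775 ± 167, 2134 ± 125, 1921 ± 173 and 1511 ± 189 CPM in this order of populations. In smooth muscle against preadipocyte cells 10 of the list were lower and 5 higher, while 14 of 21 other early effectors were higher and 2 lower. Of all genes, 40.7% were higher and 25.9% lower there.

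**Figure D5:**
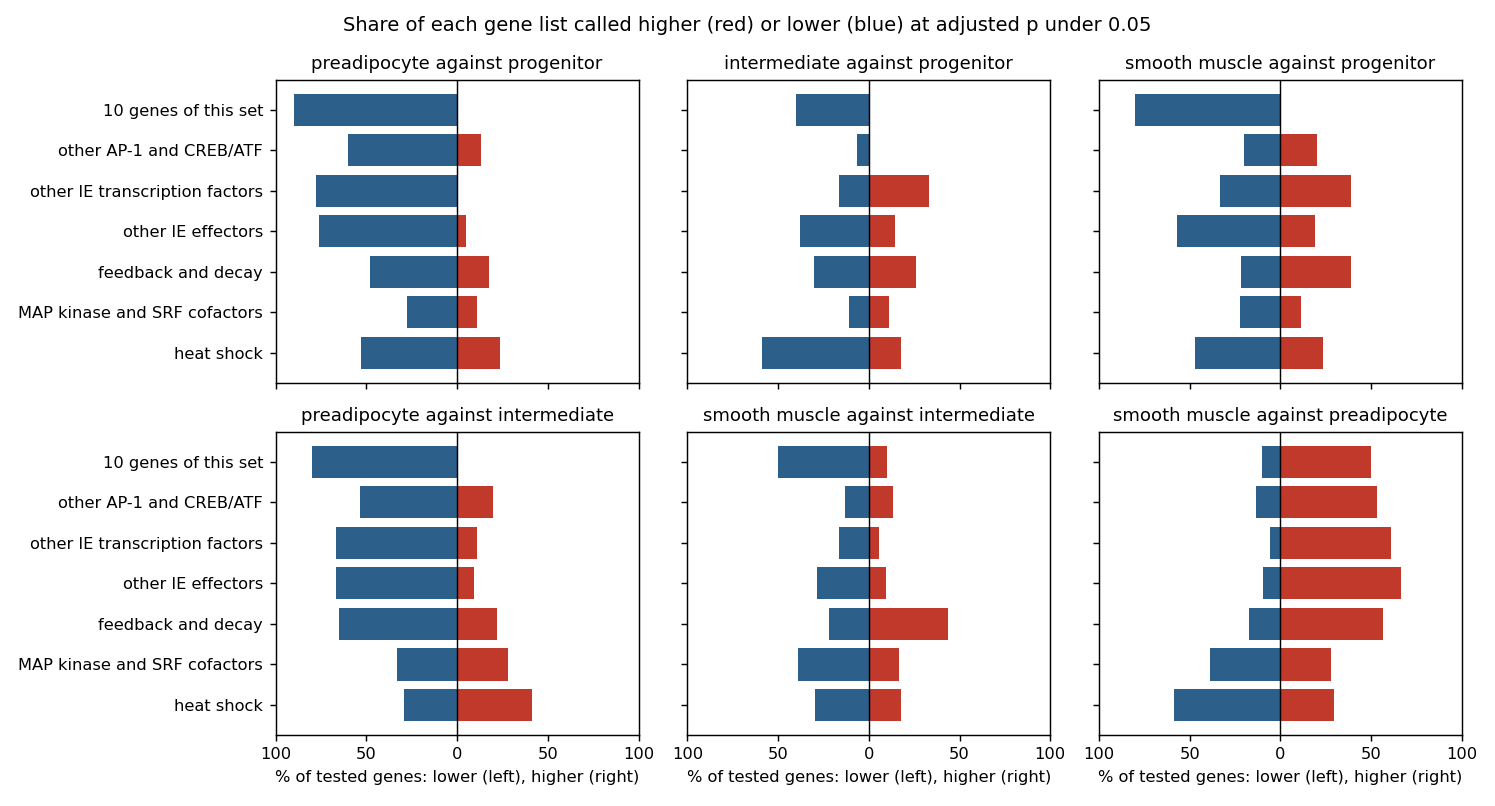
Share of each list called lower (blue bars, to the left) or higher (red bars, to the right) at an adjusted p under 0.05, as a percentage of its tested genes, in the 6 comparisons (IE, immediate early). For preadipocyte against progenitor cells the bars to the left are the longer ones for the early genes, with 9 of 10 members, 14 of 18 other transcription factors and 16 of 21 other effectors lower, and 1 effector higher. Of all genes tested, 25.9% were lower and 25.1% higher in that comparison.

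Genes whose pattern over the 12 libraries was most like that of a member were found among 7811 genes with a mean log2 CPM of at least 4, by the root mean square difference of centred log2 CPM. For Fos these were Tbc1d10a (0.089), Rhbdf1 (0.099) and Trip6 (0.101), and for Egr1 Armcx3 (0.0988), B4galt7 (0.11) and Snx9 (0.125). For Atf3 they were Kazn (0.165), Slc31a2 (0.207) and Arhgef28 (0.213), and for Dusp1 Prmt2 (0.152), Cnn3 (0.159) and Spata6 (0.171). No gene came as close to Fosb, where Slc39a1 was nearest at 0.196. Within the set, Fosb and Atf3 were furthest apart at 0.761, while Dusp1 and Ier3 lay at 0.161.

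The labelled populations carried most of their defining markers, given here as sums of CPM by library size. An exception was the progenitor marker Dpp4, with a mean of 90.4 CPM in smooth muscle against 81.2 in progenitor libraries. The 7 progenitor markers summed to 3553 to 4043 in progenitor libraries and to at most 776 elsewhere, the 8 preadipocyte markers to 5547 to 7977 in preadipocyte libraries and at most 1664 elsewhere, and the 7 smooth muscle markers to 8198 to 9130 in smooth muscle libraries and at most 899.7 elsewhere. Of the preadipocyte list, Lpl made up 1318 CPM of the mean of 1636 in progenitor libraries. Intermediate libraries had no marker list of their own, and held 649 to 899.7 CPM of the smooth muscle list and 1078 to 1247 of the 6 pericyte markers. Smooth muscle libraries held more of the pericyte list, 1926 to 2384 CPM, and its member Kcnj8 had its highest mean in progenitor libraries, at 108.8 CPM. Markers of other cells moved with some populations, and their part in the differences of the members was not tested. Red blood cell markers (7 genes) summed to 1185 to 20055 CPM in preadipocyte libraries and at most 257 elsewhere, with Hba-a2 at 0 in intermediate and smooth muscle libraries. Mesothelial markers (6 genes) summed to 1322 to 1741 and Schwann and neuron markers (7 genes) to 629.8 to 827 CPM in smooth muscle libraries, against at most 169 and 113 elsewhere. Of the latter list, S100b had its highest mean in progenitor libraries, at 14.5 CPM against 6.52 in smooth muscle libraries. The 7 endothelial markers summed to 37.9 to 129.9 CPM over all libraries, but Tek made up 101 CPM of the progenitor mean. The other 6 had higher means in preadipocyte than in progenitor libraries, such as Pecam1 at 32.4 against 9.46 CPM, Tie1 at 15.1 against 0.0584 and Egfl7 at 13.6 against 2.24. The 8 macrophage and leukocyte markers summed to 18.3 to 30.2 CPM in the other populations and to 36.4 to 48.7 in smooth muscle libraries. Of these, Lyz2 had its lowest mean in smooth muscle libraries, at 3.33 CPM. C1qa and C1qb had their highest in preadipocyte libraries, at 1.12 and 1.92 CPM. Libraries held 11701825 to 17123109 counts. Receptor genes used in sensory neurons summed to 712 to 1034 CPM in smooth muscle libraries and 36.8 to 316 CPM in the others. Their median count per kilobase of exon was taken as an even background, at 1.58 to 2.31 in smooth muscle libraries and 0 to 0.692 elsewhere. It was subtracted from each gene by exon length, and TMM factors were computed anew. Atf3 had 10142 to 13463 counts in smooth muscle libraries before this. Afterwards smooth muscle cells lost the calls of Atf3 against progenitor cells (-0.35, adjusted p = 0.0541), Fos against intermediate cells (-0.41, adjusted p = 0.0535) and Jun against preadipocytes (-0.36, adjusted p = 0.0501). The parts of the subtraction and of the new factors were not tested.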

How the data were processed

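The authors deposited whole-number counts per gene and library, with no scaling, and these counts were used here. Per the submitters' processing notes, the tools were STAR 2.5.2a and DESeq2 1.26.0 and the build was mm10. Which program counted reads, with which gene models and with or without strand, is not given in the sources used here. Libraries were made with SMART-Seq v4 chemistry from poly(A) RNA, per the labels' protocols, and carry no molecular identifiers. Groups were taken from the sample titles, and the other deposited tables were not used here. The members, the further lists and the markers were chosen with earlier results of these data known. All members were named, and from each list the 3 tested genes with the highest mean, along with the 3 genes nearest to a member in pattern. Hspa1a, Hspa1b and Hspd1 were named outside this rule. A result for 1 gene that this rule names is not reported here.

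Genes were filtered with filterByExpr, scaled with TMM (factors 0.823 to 1.20) and tested with edgeR 4.0.16 (glmQLFit, glmQLFTest, two-sided) in R 4.3.3, in 1 model over 12 libraries with a coefficient per population. Adjustment was by Benjamini-Hochberg over 21285 genes, with calls at 0.05. The SE is that implied by the F statistic, and 95% intervals use the total degrees of freedom of the test, residual plus those gained by sharing spread over genes. Exon lengths, positions and overlaps come from GENCODE M21. On simulated counts of 21285 genes for preadipocyte against progenitor, the test found 31 of 100 genes made to change 2-fold, 79 of 100 made to change 4-fold, and 5 false ones. Replicates were separate libraries, with a chi-square per degree of freedom of 4.37 to 85.8. Alternatives were DESeq2 size factors or library size alone, DESeq2 1.42.0, limma-voom (limma 3.58.1), other filters, the compared populations alone, a replicate block, an even background subtracted, and each library left out. With a library left out, the filter and TMM factors were computed anew for all populations.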

Additional observations from a re-analysis of the deposited data

How the results depend on the processing

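Of 60 comparisons of a member, 41 were called, and 29 of these were called under all 21 alternatives. The members called between intermediate and progenitor cells numbered 4, and 7 with limma-voom or with the compared populations alone. Leaving out 1 library gave 3 to 7 there, 8 to 10 for preadipocyte against progenitor, 7 to 9 for smooth muscle against progenitor, 8 to 9 for preadipocyte against intermediate, 5 to 8 for smooth muscle against intermediate, 4 to 6 for smooth muscle against preadipocyte and 9 to 10 for any difference. Over all genes, calls for smooth muscle against progenitor went from 11525 to 17437 with no filter and 6948 at 5 CPM or more. Calls went from 6127 to 10454 by library size alone for smooth muscle against intermediate, and at 5 CPM or more from 14182 to 9347 for smooth muscle against preadipocyte and from 16988 to 11157 for any difference. Leaving out 1 library gave 3780 to 7658 for intermediate against progenitor (5870 with all), with 3780 without progenitor replicate 1, then 9624 to 10721, 9790 to 14201, 10491 to 12980, 4672 to 7586, 12846 to 15556 and 16007 to 18737 for the others in the order above.

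By library size alone, 67.6% of calls were higher for preadipocyte against progenitor (49.2% with TMM), 82.8% for smooth muscle against progenitor (56.4%), 64.7% for preadipocyte against intermediate (45.6%) and 89.2% for smooth muscle against intermediate (54.6%). The direction turned by library size alone for smooth muscle against intermediate in Fos (0.000152), Dusp1 (0.31) and Jund (0.37), for smooth muscle against progenitor in Fosb (0.38) and Jund (0.21), and for preadipocyte against intermediate in Jun (0.0615) and Jund (0.14). It turned for smooth muscle against preadipocyte in Egr1 with DESeq2 (-0.0567) and its factors (-0.0846), with no filter in Egr1 (-0.40), Ier2 (-0.24), Jund (-0.26) and Junb (-0.0636), and with the populations alone in Egr1 (-0.16), Jund (-0.03004) and Ier2 (-0.0051). It also turned for Ier3 between smooth muscle and intermediate with no filter (-0.13), for Egr1 between intermediate and progenitor with these alone (0.0069), at 5 CPM or more there in Jund (0.015), Egr1 (0.057) and Ier2 (0.0398), and for Fosb between smooth muscle and progenitor at 5 CPM or more (0.13) and with background subtracted (0.0642). Leaving out 1 library gave -0.27 to 0.27 for Egr1, -0.12 to 0.31 for Ier2 and -0.14 to 0.33 for Jund between smooth muscle and preadipocyte, and -0.16 to 0.21 for Ier3 between smooth muscle and intermediate. With a library left out the filter and TMM factors were computed anew. The cause of these turns was not tested.

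With replicate number as a block, Jun was lower in preadipocyte than intermediate cells (-0.38, adjusted p = 0.0499) and Fosb higher in smooth muscle than preadipocyte cells (0.70, adjusted p = 0.0400), and no member call was lost. Deviations of same-numbered libraries correlated across genes from -0.163 to 0.207, so the numbers were not taken to pair samples.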
